A study of Drosophila melanogaster with 30 samples.

Results

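The comparison described here sets the anterior midgut of adult female flies of the strain Hr96[2x] against that of the wild-type strain y[1]w[1]. Its members are 6 of the 30 libraries of the series, chosen by their labels: 3 anterior Hr96[2x] libraries and 3 anterior y[1]w[1] libraries, both from flies on the control diet. The flies were mated females of 10 to 12 days, kept at 25 °C at controlled density with males and moved to their diet as pupae. Each library held poly(A) RNA from 30 to 50 dissected regions, so it is an average over many animals and over every cell type in the dissected piece. The series calls Hr96[2x] and a second strain, Hr96[1], mutants of the nuclear receptor gene Hr96, and places them beside diets low in lipid or high in cholesterol. The sources used here do not give how Hr96[2x] was made or what its genetic background is.

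Hr96 is a nuclear receptor of the fly that binds sterols and related lipids, and in the midgut it is known to act on genes for the digestion and uptake of dietary fat and cholesterol. One of its known targets is mag (magro), a secreted lipase that digests triglycerides in the gut lumen and also cleaves cholesterol esters. Flies cannot make sterols, so they depend on Npc1 and Npc2 proteins, lipases and lipoprotein receptors to take them from food. The anterior midgut is a main site of protein and starch digestion and of lipid storage in enterocytes, the absorptive cells.

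Levels below are FPKM (fragments per kilobase of gene, relative to the mapped fragments of the library) divided by a factor per library, called scaled FPKM, and each log2 difference is between means of log2(scaled FPKM + 1), which understates the change of low genes. The depth behind each value is unknown, because the files give FPKM and no counts. The 6 libraries listed 10691 to 11473 genes above 0. Scale factors were 0.551 to 0.792 in Hr96[2x] and 0.865 to 1.08 in wild type, so the deposited FPKM of Hr96[2x] sat lower for most genes. Nothing in the labels ties the replicates to separate cultures or crosses, so p-values measure only the spread between libraries of a group, which may be technical. That spread was estimated over all 10 groups of the 30 libraries, not over these 6 alone. A permutation of 3 against 3 libraries cannot reach 0.05, so the p-values below come from limma across all tested genes. The enterocyte transcription factor gene nub read 80.0 to 89.2 in wild type and 67.8 to 88.5 in Hr96[2x], and the hindgut genes byn and otp were at 0 in all 6 libraries. These do not tell the anterior from the middle midgut, whose copper cells are marked by lab and Vha100-4. Vha100-4 read 9.38 and lab 0.683 in wild-type replicate 3, and at most 0.644 and 0.0738 in the other 5 libraries.

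In Hr96[2x], 1532 of 8335 tested genes (18.4%) differed from wild type at an adjusted p under 0.05 in limma, with 718 higher (8.61%) and 814 lower (9.77%). The median size of a called difference was log2 0.89. Of the called genes, 319 were higher and 328 lower by at least log2 1 (7.76% of tested genes together), and 38 were higher and 25 lower by at least log2 3. The 3 and 3 libraries did not overlap in 1469 of the called genes, and in 36.2% of all tested genes. On the deposited FPKM, where the median gene sat at log2 -0.40, the split was 233 higher and 2116 lower, so the balance of rises and falls depends on the scaling. In all 6 fits that leave out 1 library, 710 of the 1532 genes were still called in the same direction, 322 of them higher and 388 lower. The count fell to 1004 without wild-type replicate 3, to 847 when the 6 libraries were fitted alone, and stood at 3274 with array weights. The fit of the 6 libraries alone also ended the call of 53 named genes. For those described singly below, the adjusted p in that fit is given where no other limit is. Others of the 53, such as GstE11 and Ugt86Da, stand below only within the counts of their lists.

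**Figure D1:**
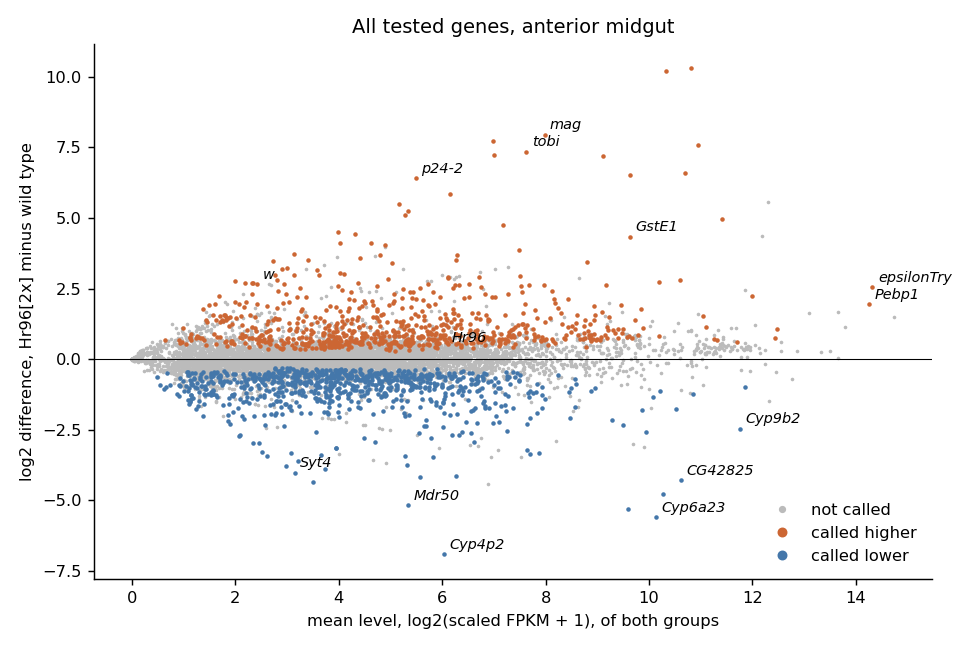
Log2 difference of Hr96[2x] minus wild type (y axis) against the mean level of both groups as log2(scaled FPKM + 1) (x axis) for 8335 tested genes, with called rises in orange, called falls in blue and others in grey. Falls reach Cyp4p2 at log2 -6.92, and epsilonTry and Pebp1 are the most abundant called genes.

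The Hr96 gene itself (3R:25025235-25029351, dm6) was not called. Hr96 read 67.9, 43.4 and 61.2 in wild type and 76.5, 69.3 and 80.0 in Hr96[2x], a log2 difference of 0.40 (SE 0.24, adjusted p = 0.283). All 3 Hr96[2x] values lay above the 3 wild-type values on this scale, but on deposited FPKM the difference was log2 -0.10. With array weights Hr96 was called, at log2 0.60 (adjusted p = 0.0081). FPKM of a whole gene cannot show whether its transcript is intact.

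Within 50 kb of Hr96 on chromosome 3R, 18 genes were tested, of which 3 were higher and 0 lower, a share (16.67%) near the 18.4% of all genes. Within 500 kb 23.62% were called, 13 higher and 17 lower, and within 2000 kb 20.57%. The largest of these was CG11781, the gene now named EMC6, next to Hr96 at 36.8, 40.3 and 38.4 in wild type and 105, 120 and 127 in Hr96[2x] (log2 1.58, adjusted p = 2.67e-05). CG11791 was at log2 0.50 (adjusted p = 0.0200; log2 -0.0047 on deposited FPKM; 0.0817 without wild-type replicate 3 and 0.108 without Hr96[2x] replicate 2). The cargo receptor gene bai was at log2 0.55 (adjusted p = 0.0449, and 0.0723 to 0.187 without any 1 of 5 libraries, Hr96[2x] replicate 1 being the exception).

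The white gene w, which encodes a transporter subunit for eye pigment precursors and is mutated in the y[1]w[1] strain, was higher in Hr96[2x]. It read 0.283, 0.289 and 0.836 in wild type and 9.48, 8.74 and 6.36 in Hr96[2x] (log2 2.65, SE 0.75, adjusted p = 0.0166). The groups did not overlap, although the call was lost without wild-type replicate 1 (0.0508), wild-type replicate 2 (0.0512) or Hr96[2x] replicate 1 (0.0531). In posterior midgut w was also higher in Hr96[2x], by log2 2.82 (adjusted p = 0.0153; 0.0514 to 0.0676 without any 1 of 4 posterior libraries, both replicates 1, wild-type replicate 2 and Hr96[2x] replicate 3). The strains therefore differ in the transcript of a gene other than Hr96, and the part of genetic background in the other results was not tested. Percent called was 17.44 on X, 16.36 on 2L, 21.67 on 2R, 17.54 on 3L, 18.89 on 3R and 3.45 on chromosome 4, where 2 of 58 tested genes were called.

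The lipase gene mag had the third largest rise of the comparison. It read 1.35, 0.416 and 0.715 in wild type and 364, 875 and 268 in Hr96[2x], a log2 difference of 7.95 (SE 0.77, adjusted p = 1.29e-07), or 608 times the wild-type mean on the linear scale. Every Hr96[2x] library lay far above every wild-type library, with Hr96[2x] replicate 2 the highest and replicate 3 the lowest of its group. In posterior midgut, where wild type already read 85.5 to 111, mag reached 253 to 2207 in Hr96[2x] (log2 2.91, adjusted p = 0.0139; 0.114 without Hr96[2x] replicate 2 and 0.0542 without wild-type replicate 3). In the anterior midgut of Hr96[1], against the same wild-type libraries, mag read 3.03 to 6.05 (log2 1.57, adjusted p = 0.145).

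Of 18 tested genes of sterol transport and handling, 2 were higher and 2 lower, beside 8.61% and 9.77% of all genes. Their median log2 was 0.03 (-0.25 on deposited FPKM), beside 0.01 for all tested genes. Besides mag, the lipoprotein receptor gene LpR1 rose from 43.2, 27.6 and 24.3 to 176, 161 and 111 (log2 2.21, adjusted p = 0.00299). Its neighbour and paralog LpR2 fell, from 45.4, 32.5 and 40.9 to 16.7, 15.2 and 12.9 (log2 -1.34, adjusted p = 0.00112). SCAP, which escorts the lipid-sensing factor SREBP out of the endoplasmic reticulum, fell from 11.6 or more in each wild-type library to a range of 5.09 to 5.26 (log2 -1.15, adjusted p = 0.000117). None of the 9 tested Npc1 and Npc2 genes was called, and their log2 differences ran from -0.47 to 0.75.

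Among 15 tested digestive lipases, 2 rose and 1 fell, beside 8.61% and 9.77% of all genes (median log2 0.21, and -0.17 on deposited FPKM). CG5966, a pancreatic-type lipase gene, read 40.9, 31.7 and 22.4 in wild type and 78.2, 142 and 77.8 in Hr96[2x] (log2 1.60, adjusted p = 0.0109). CG31089, an acid-type lipase gene, read 6.70, 10.3 and 11.1 against 1.31, 5.55 and 0.315 (log2 -1.91, adjusted p = 0.0168). Both calls needed particular libraries. CG5966 was not called without wild-type replicate 3 (0.0627) or Hr96[2x] replicate 2 (0.0646), and CG31089 was not called without any 1 of wild-type replicates 2 and 3 and Hr96[2x] replicates 1 and 3 (0.0538 to 0.104).

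**Figure D2:**
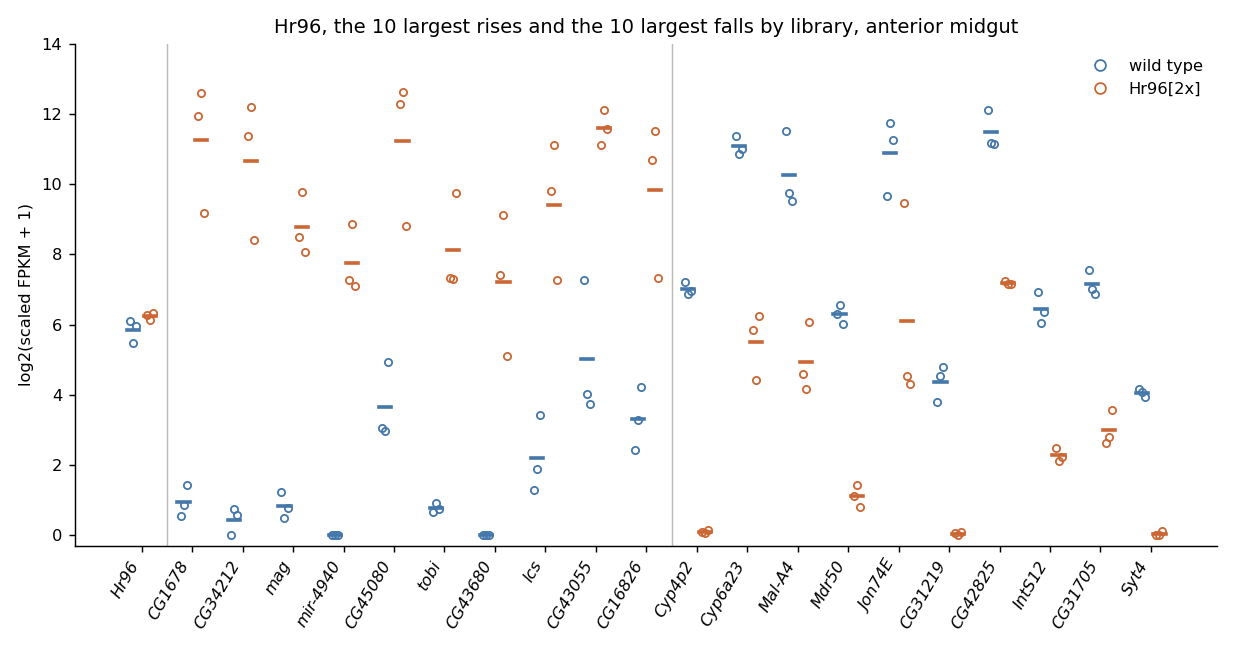
Level as log2(scaled FPKM + 1) of Hr96, the 10 largest rises and the 10 largest falls in each of the 3 wild-type (blue) and 3 Hr96[2x] (orange) anterior libraries, with bars at the means. For several of the rises, such as CG1678, CG45080 and mag, Hr96[2x] replicate 3 is the lowest Hr96[2x] library and replicate 2 the highest.

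The 2 largest rises were CG1678, now named whe, and CG34212. CG1678 read 0.456, 0.816 and 1.72 in wild type and 3986, 6234 and 585 in Hr96[2x] (log2 10.31, adjusted p = 0.000676), and CG34212 read 0, 0.661 and 0.497 against 2639, 4714 and 338 (log2 10.22, adjusted p = 0.000143). The genes CG45080 (445 to 6321 in Hr96[2x]), lcs (152 to 2246), CG16826 (159 to 2912) and CG43680 (33.5 to 562) had the same order over the Hr96[2x] libraries, with replicate 2 highest and replicate 3 lowest. In wild type CG43680 was listed at 0 in all 3 libraries. The spread within Hr96[2x] was wide, with an SE of log2 1.94 for CG1678 and 1.30 for CG43680. CG45080 (adjusted p = 0.0170) was not called without any 1 of both replicates 1 and both replicates 2 (0.0534 to 0.0661), and CG16826 (0.00987) was not called without Hr96[2x] replicate 2 (0.0518). None of these 6 genes was called in posterior midgut, where their log2 differences lay between -0.96 and 1.92. The anterior Hr96[1] means were 1166 for CG1678, 844 for CG34212, 2919 for CG45080, 321 for lcs, 696 for CG16826 and 42.1 for CG43680, each called against the same wild-type libraries. The short RNA mir-4940 was also among the largest rises, but libraries of this kind do not measure such RNAs well it overlaps nwk, and it was not called without wild-type replicate 3 (adjusted p = 0.0510) or Hr96[2x] replicate 2 (0.0639).

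Of the other large rises, tobi encodes an alpha-glucosidase that is a target of insulin and glucagon-like signalling. It read 0.584, 0.870 and 0.685 in wild type and 159, 158 and 861 in Hr96[2x] (log2 7.36, SE 0.46, adjusted p = 6.55e-11). CG43055 read 154, 15.4 and 12.4 against 2211, 4472 and 3064 (log2 6.59, adjusted p = 3.01e-07). It overlaps CG15431, which rose as well (log2 3.24, adjusted p = 2.19e-08), and unstranded reads of the overlapping genes cannot be told apart. For tobi and CG43055 no wild-type library reached the lowest Hr96[2x] library. The Hr96[1] means differed between these genes, at 360 for tobi and 38.6 for CG43055.

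Several of the largest falls had a narrow spread. The cytochrome P450 gene Cyp4p2 read 148, 115 and 123 in wild type and 0.0568, 0.0422 and 0.104 in Hr96[2x] (log2 -6.92, SE 0.14, adjusted p = 4.82e-21). Another P450 gene, Cyp6a23, fell from 2679, 1869 and 2071 to 56.2, 20.4 and 75.1 (log2 -5.59, adjusted p = 1.95e-10). Mdr50, a transporter of the multidrug resistance family, fell from 63.3 to 93.1 in wild type to a range of 0.738 to 1.72 (log2 -5.17, adjusted p = 4.33e-08). In each of these genes the wild-type libraries lay within a narrow range and the Hr96[2x] libraries were all far below it.

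Among the other large falls, Syt4, which encodes a synaptotagmin of vesicle release, read 14.3 to 16.8 in wild type and was at 0 in 2 Hr96[2x] libraries and at 0.0861 in the third (log2 -4.02, adjusted p = 6.65e-16). IntS12, a subunit gene of the Integrator complex that processes small nuclear RNAs, fell from 65.6 to 120 to a range of 3.30 to 4.64 (log2 -4.17, adjusted p = 1.98e-10). CG31219, CG42825 (now named Srg2) and CG31705 also fell, with log2 differences from -4.34 in CG31219 to -4.29 in CG42825 and somewhat less in CG31705. The 6 genes Cyp4p2, Mdr50, Syt4, IntS12, CG31219 and CG42825 also fell in posterior midgut, by log2 -4.10 to -6.96. Mal-A4 fell from 728 to 2952 in wild type to 16.9 to 67.1, and Jon74E from 806 to 3426 to 18.7 to 701, with Hr96[2x] replicate 1 near wild type (log2 -4.79, adjusted p = 0.00759; 0.105 with the 6 libraries alone).

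The most abundant called genes were of mixed kinds. The trypsin gene epsilonTry read 5226, 7961 and 4890 in wild type and 30360, 43073 and 31462 in Hr96[2x] (log2 2.55, SE 0.62, adjusted p = 0.0056; 0.0909 with quantile normalization). Pebp1, a phosphatidylethanolamine-binding protein gene, rose from 5539 to 9634 to a range of 22834 to 42662 (log2 1.96, adjusted p = 0.00189; 0.291 with quantile normalization). CG4734 rose from 1200 to 1894 to a range of 5211 to 8513 (log2 2.23, adjusted p = 0.00683). These ranges did not overlap. On the falling side, Cyp9b2 went from 10565, 3078 and 4292 to 903, 731 and 1260 (log2 -2.46, adjusted p = 0.000494), and AOX1, an aldehyde oxidase gene, from 1471 to 3176 to 269 to 1127 (log2 -1.76, adjusted p = 0.00492; 0.121 with the 6 libraries alone). CG5399 was at log2 -0.97 (adjusted p = 0.0292, and 0.0592 to 0.121 without any 1 library other than Hr96[2x] replicate 3). CG10912 was at log2 1.08 (adjusted p = 0.0251; 0.0512 and 0.124 without wild-type replicates 2 and 3, and 0.128 without Hr96[2x] replicate 3).

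Some genes, abundant digestive ones among them, could not be compared. In at least 1 Hr96[2x] library 18 genes carry a status for too many fragments and are listed at 0, against 0 genes in wild type, and 10 of them carry it in all 3 Hr96[2x] libraries. These include the trypsin gene betaTry, at 36996 to 52915 in wild type, and the lysozyme genes LysB, LysC, LysD, LysE, LysP and LysS. Where a value remained it was above wild type in several of them. The chymotrypsin-like gene Jon65Aiv read 133206 in Hr96[2x] replicate 3 and 25674 to 38976 in wild type, Jon65Aiii 92274 and 20711 to 27348, and alphaTry 106922 and 91898 in Hr96[2x] replicates 2 and 3 and 25767 to 42286 in wild type. With values in 1 or 2 libraries these were not tested, and an entry of 0 in them is not a low level.

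Of the 20 trypsin and Jonah protease genes that could be tested, 5 rose and 2 fell, beside 8.61% and 9.77% of all genes, with a median log2 of 0.93, and 17 lay above 0. The median was 0.46 without Hr96[2x] replicate 2 and 0.55 on deposited FPKM, and 2 rose on deposited FPKM, without wild-type replicate 1 or without Hr96[2x] replicate 1. Without any 1 of wild-type replicates 2 and 3 and Hr96[2x] replicate 2 it was 3. Besides epsilonTry, the proteases Jon99Fi (log2 2.85, adjusted p = 0.0103), lambdaTry (1.25, 0.0219) and iotaTry (1.40, 0.0346) rose, as did thetaTry (2.90, 0.0407), named after its values were seen. The calls of all 4 were lost without single libraries: Jon99Fi without Hr96[2x] replicate 1 (0.0881), lambdaTry without wild-type replicate 1 or Hr96[2x] replicates 1 or 3 (0.0565 to 0.149), and iotaTry without any 1 library but Hr96[2x] replicate 3 (0.0525 to 0.146). For thetaTry it was any 1 library but Hr96[2x] replicate 1 (0.0633 to 0.169). Jon66Cii fell from 12.1 to 17.9 to a range of 0.218 to 0.839 (log2 -3.33, adjusted p = 0.000222). The genes are close paralogs, and reads may have been split among them.

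Of 11 tested amylases and maltases, 3 maltases fell and 1 gene, tobi, rose (median log2 -1.34), beside 9.77% and 8.61% of all genes. The amylase gene Amy-p read 9107, 3886 and 2946 in wild type and 3469, 6584 and 6885 in Hr96[2x], so its groups overlapped, as did the summed levels of the list (14511 to 43945 against 12717 to 24207). The maltase genes Mal-A4, Mal-A3 and Mal-A2, which neighbour each other on 2R, fell by log2 -5.32, -3.41 and -1.34 (adjusted p = 6.81e-06, 0.0045 and 0.0173), and with the 6 libraries alone Mal-A3 was not called (0.078). Wild-type replicate 1 was the highest library for all 3, as for Mal-A4 at 2952 beside 865 and 728. Without wild-type replicate 1 the call of Mal-A2 was lost (0.111), as it was without Hr96[2x] replicates 1 (0.0677) or 2 (0.102). The one testable lysozyme gene, LysX, fell from 2239, 1112 and 1736 to 307, 203 and 315 (log2 -2.59, adjusted p = 0.0063).

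Of 13 tested genes of triglyceride storage and lipid export 6 rose and 2 fell, beside 8.61% and 9.77% of all genes, and the median log2 was 0.62 (0.01 for all genes, and 0.12 for the list on deposited FPKM). The split was 2 and 2 on deposited FPKM and without Hr96[2x] replicate 2, 3 and 2 without wild-type replicate 3, 4 and 2 without wild-type replicate 2 or Hr96[2x] replicate 1, and 1 and 1 with the 6 libraries alone. Lsd-2, a perilipin that coats lipid droplets, rose from 105, 113 and 99.9 to 316, 314 and 160 (log2 1.24, adjusted p = 0.000753; 0.0523 with the 6 libraries alone and 0.0619 on deposited FPKM). CG1942, CG1946 and CG1941 lie side by side on 2R and encode acyltransferases like DGAT2, which makes triglyceride. CG1942 read 0.574 to 3.26 in wild type and 7.59 to 57.7 in Hr96[2x] (log2 3.04, adjusted p = 0.00418; 0.0639 with the 6 libraries alone), and CG1946 17.7 to 34.1 and 38.4 to 231 (log2 1.79, adjusted p = 0.00625; 0.0575 without Hr96[2x] replicate 2). For all of Lsd-2, CG1942 and CG1946, Hr96[2x] replicate 3 was the lowest library of its group.

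Lpin, the phosphatidate phosphatase of triglyceride synthesis, was at log2 0.62 (adjusted p = 0.0123; 0.0617 without wild-type replicate 3 and 0.0763 without Hr96[2x] replicate 2). CG1941 and bmm, a triglyceride lipase, complete the 6 and are named after their values were seen. CG1941 was at log2 0.73 (adjusted p = 0.0462, and 0.0623 to 0.166 without any 1 library), and bmm at log2 1.03 (0.0287; 0.0579 to 0.187 without any 1 of wild-type replicates 2 and 3 and Hr96[2x] replicates 1 and 2). Mtp, which loads lipid onto lipoproteins for export, fell from 6.92, 5.50 and 4.31 to 2.34, 1.61 and 2.86 (log2 -1.01, adjusted p = 0.00419). The lipase gene Hsl was at log2 -0.51 (adjusted p = 0.012; 0.0831 without wild-type replicate 1 and 0.0802 without Hr96[2x] replicate 3).

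In fatty acid synthesis and the SREBP pathway 2 of 12 tested genes rose and 2 fell, beside 8.61% and 9.77% of all genes (median log2 -0.12). Acsl, which activates long-chain fatty acids, rose from 150 to 237 to a range of 367 to 489 (log2 1.23, adjusted p = 0.000465). The elongase gene CG2781, now Elovl7, was at log2 0.78 (adjusted p = 0.0147; 0.0549 to 0.0827 without wild-type replicates 2 or 3 or Hr96[2x] replicate 2). Besides SCAP, the SREBP protease gene S2P was at log2 -0.42 (adjusted p = 0.0446, and 0.0533 to 0.275 without any 1 library other than Hr96[2x] replicate 3).

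In fatty acid beta-oxidation 4 of 21 genes rose and 0 fell, beside 8.61% and 9.77% of all genes. The median log2 of 0.28 turned to -0.22 on deposited FPKM. Without any 1 of wild-type replicate 3 and Hr96[2x] replicates 1 and 2, 2 rose, and with the 6 libraries alone 1 did. The carnitine palmitoyltransferase gene whd, which admits fatty acids to mitochondria, rose from 201, 136 and 107 to 698, 296 and 439 (log2 1.64, adjusted p = 0.00334; 0.0529 with the 6 libraries alone). CG4594, an enoyl-CoA isomerase gene, rose from 7.53 to 10.1 to a range of 18.2 to 25.9 (log2 1.24, adjusted p = 0.000647). The carnitine carrier gene colt (log2 0.68, adjusted p = 0.031) and Etf-QO (0.52, 0.0200), which passes electrons from fatty acids to the respiratory chain, made up the 4. Colt was not called without any 1 library other than wild-type replicate 2 and Hr96[2x] replicate 3 (0.0762 to 0.116), and Etf-QO without wild-type replicate 3 or Hr96[2x] replicates 1 or 2 (0.0611 to 0.143).

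Many genes for subunits of the respiratory chain were higher. Of 69 tested genes of oxidative phosphorylation 34 were higher and 0 lower, beside 8.61% and 9.77% of all genes, 68 lay above 0, and the median log2 was 0.70. In 60 of them the 3 and 3 libraries did not overlap, beside 36.2% of all tested genes. The count was 24 higher with quantile normalization (median 0.48) and 2 higher on deposited FPKM (median 0.18), both with 0 lower. It was 13 to 15 without any 1 of wild-type replicates 1 and 3 and Hr96[2x] replicates 1 and 2, with medians of 0.62 to 0.68 and 0 lower. By complex, 19 of 33 complex I genes, 1 of 4 of complex II, 6 of 10 of complex III, 3 of 11 of complex IV and 5 of 11 of ATP synthase were called, with medians between 0.47 and 0.79. The complex I subunit CG7712 (now ND-B14) read 44.4, 57.4 and 48.5 in wild type and 160, 166 and 141 in Hr96[2x] (log2 1.62, adjusted p = 3.77e-06), and the complex III subunit ox read 345 to 378 and 641 to 979 (log2 1.13, adjusted p = 0.00028). In posterior midgut 2 of the 69 genes were higher and 0 lower, with a median of 0.35.

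Cytosolic ribosomal protein genes lay slightly above wild type on the scale used, with a median log2 of 0.40 over 81 tested genes and 78 above 0, but at -0.12 on deposited FPKM and -0.01 with quantile normalization. Of these, 6 were called higher and 0 lower, 7.41% of the list beside 8.61% of all genes. RpS15Ab rose from 14.8, 18.3 and 15.6 to 35.8, 37.9 and 39.0 (log2 1.17, adjusted p = 5.27e-05). RpL29 (adjusted p = 0.0490) was not called without any 1 of the 6 libraries (0.0659 to 0.165).

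**Figure D3:**
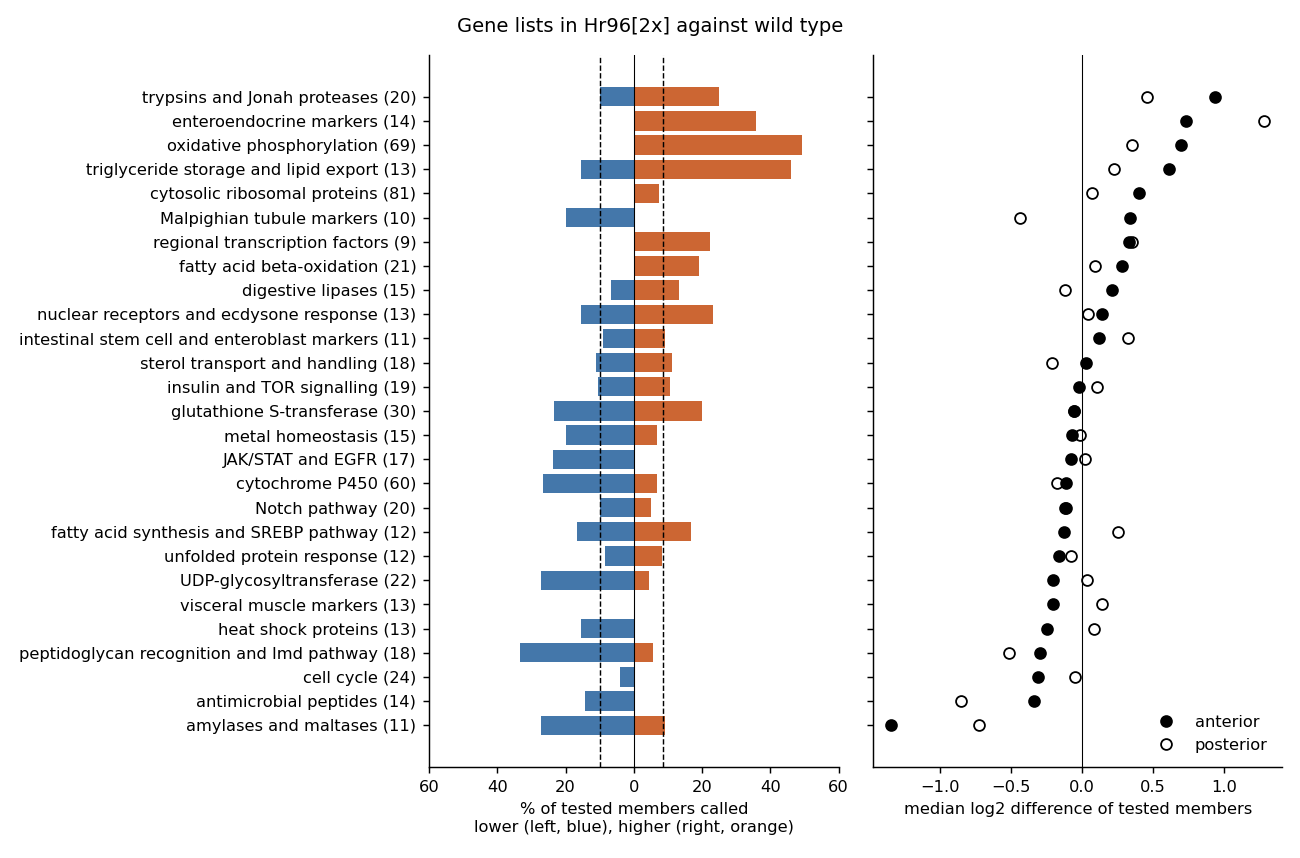
Left, percent of the tested members of each gene list (number in brackets) called lower (blue) and higher (orange) in Hr96[2x] anterior midgut, with dashed lines at 9.77 and 8.61, the percentages for all genes. Right, median log2 difference of each list in anterior (filled) and posterior (open) midgut; oxidative phosphorylation sits at 0.70 and 0.35, and ribosomal proteins at 0.40 anterior fall to -0.12 on deposited FPKM.

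Immune lists gave different pictures by count and by level. In the list of peptidoglycan recognition and the Imd pathway, which senses bacteria and turns on antimicrobial peptides, 6 of 18 tested genes fell and 1 rose (median log2 -0.30), beside 9.77% and 8.61% of all genes. The summed level of the list was higher in Hr96[2x], at 2266 to 4963 against 959 to 1365 in wild type, of which PGRP-SC2 made up 1793 to 4590 and 266 to 420. PGRP-SD, a secreted recognition protein that promotes the pathway, fell from 45.7, 36.0 and 31.6 to 2.91, 3.15 and 9.12 (log2 -2.81, adjusted p = 0.00101). Pirk, an inhibitor of the pathway, fell from 377, 183 and 202 to 47.2, 15.9 and 85.8 (log2 -2.55, adjusted p = 0.00125; 0.0653 with the 6 libraries alone). The peroxidase gene Irc (log2 -1.22; adjusted p of 0.0598 with the 6 libraries alone), PGRP-LF (-0.86), which blocks the receptor, and the cytokine gene upd3 (-1.76) fell too. The fall of upd3 is counted a second time in the list of JAK/STAT and EGFR genes below. Rel, the NF-kappaB factor of the pathway, named after its values were seen, fell from 112 to 118 to a range of 62.9 to 77.3 (log2 -0.70, adjusted p = 0.0145; 0.0629 without Hr96[2x] replicate 2).

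PGRP-SC2, an amidase that degrades peptidoglycan, was the member that rose, from 420, 396 and 266 to 1862, 4590 and 1793 (log2 2.81, adjusted p = 0.000108). Of 14 tested antimicrobial peptide genes 2 fell and 0 rose, beside 9.77% and 8.61% of all genes. The summed level of all 19 in the list was 460 to 1116 in wild type and 1250 to 1975 in Hr96[2x]. The median log2 of the 14 was -0.34, with 6 above 0, so the higher sum does not describe most members. AttC read 4.81, 12.7 and 10.5 in wild type and was listed at 0 in all 3 Hr96[2x] libraries. Drsl3 read 79.4, 172 and 126 against 17.9, 15.7 and 19.5 (log2 -2.70, adjusted p = 0.00939).

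Detoxification enzymes moved in both directions, often by family. Of 60 tested cytochrome P450 genes 16 fell and 4 rose, beside 9.77% and 8.61% of all genes. Of 6 tested Cyp9 genes 4 fell, among them Cyp9c1 (22.5 to 34.7 against 1.43 to 2.54; log2 -3.16, adjusted p = 3.90e-10), and 1 rose, Cyp9f3Psi (log2 2.59, adjusted p = 1.79e-07). Of 19 Cyp6 genes 0 rose and 6 fell, among them Cyp6a17, which neighbours Cyp6a23 (log2 -2.42, adjusted p = 5.18e-06). Cyp12c1, a mitochondrial type P450, rose from 24.2, 21.3 and 18.8 to 92.4, 107 and 105 (log2 2.19, adjusted p = 1.14e-07). Cyp4p1, the neighbour of Cyp4p2, rose as Cyp4p2 fell, from 35.4, 40.3 and 50.3 to 94.9, 73.3 and 117 (log2 1.15, adjusted p = 0.000318; 0.125 on deposited FPKM), and both genes overlap hig.

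Of 30 glutathione S-transferase genes 6 rose and 7 fell (1 and 10 on deposited FPKM), beside 8.61% and 9.77% of all genes. GstE1 read 58.0, 62.9 and 89.7 in wild type and 1397, 892 and 2271 in Hr96[2x] (log2 4.34, SE 0.41, adjusted p = 8.11e-08), with no overlap. Of 11 tested GstE genes 4 rose and 1 fell, and of 10 GstD genes 6 fell and 0 rose. GstD1, the most abundant of them, went from 2374, 2394 and 2930 to 822, 977 and 1540 (log2 -1.25, adjusted p = 0.00487), and GstD5 from 216, 305 and 563 to 23.7, 45.7 and 39.1 (log2 -3.22, adjusted p = 0.000588). Of 22 UDP-glycosyltransferase genes 6 fell and 1, Dot, rose, beside 9.77% and 8.61% of all genes. Without wild-type replicate 1 or with the 6 libraries alone 2 fell. Within each family the genes lie in clusters of close copies, so single values are less certain.

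In the Notch pathway, which sets the fate of stem cell daughters, 1 of 20 tested genes rose and 2 fell, shares near or under the 8.61% and 9.77% of all genes. The E3 ligase gene mib1, which activates Notch ligands, fell from 20.9, 17.5 and 17.6 to 10.8, 7.46 and 10.3 (log2 -0.92, adjusted p = 6.26e-05). The Notch target E(spl)m6-BFM read 0.0409 to 0.796 in wild type and at least 1.51 in Hr96[2x] (log2 1.95, adjusted p = 0.00332; 0.134 with the 6 libraries alone). The Notch inhibitor gene numb was at log2 -0.83 (adjusted p = 0.031; 0.0653 to 0.159 without wild-type replicate 1 or Hr96[2x] replicates 2 or 3). Among 11 tested markers of stem cells and enteroblasts 1 was higher, spdo (log2 0.68), and 1 lower, klu (log2 -0.80), both near the threshold, with adjusted p of 0.0361 and 0.0221 that rose above 0.05 without some single libraries. For spdo leaving out any 1 library ended the call, with adjusted p up to 0.149, and for klu these were wild-type replicates 2 and 3 and Hr96[2x] replicates 1 and 3, at 0.0505 to 0.0835.

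Of 17 genes of the JAK/STAT and EGFR pathways, through which damaged enterocytes drive stem cells to divide, 4 fell and 0 rose, beside 9.77% and 8.61% of all genes. The count was 2 without wild-type replicate 3, without Hr96[2x] replicate 2, with the 6 libraries alone or with the 15 anterior libraries, and 7 on deposited FPKM. The cytokine gene upd2 went from 10.5, 5.41 and 9.15 to 2.01, 0.590 and 1.47 (log2 -1.99, adjusted p = 3.24e-05). The related cytokine upd3 went from 17.9, 22.0 and 43.7 to 9.17, 6.06 and 5.91 (log2 -1.76, adjusted p = 0.0128; 0.0874 without wild-type replicate 3). Socs36E, a target and inhibitor of the pathway, was at log2 -1.28 (adjusted p = 0.007; 0.0563 without Hr96[2x] replicate 2), and the EGFR ligand protease gene rho at -1.48 (0.0447; 0.0694 to 0.222 without any 1 library other than wild-type replicate 2). Of 24 cell cycle genes 1 fell, a share under the 9.77% of all genes. It was the mitotic kinase gene aurB (3.81, 4.55 and 4.82 against 1.53 or less; log2 -1.27, adjusted p = 9.12e-05). Although 22 of the 24 lay below 0, the median was log2 -0.31, and it was -0.05 in posterior midgut.

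Of 14 tested markers of enteroendocrine cells, the hormone-secreting cells of the gut, 5 rose and 0 fell, beside 8.61% and 9.77% of all genes, 12 lay above 0, and the median log2 was 0.73. The summed level of the list was 214 to 447 in wild type and 710 to 783 in Hr96[2x]. The summed level of 9 neuron markers moved with it, at 3.22 to 5.19 in wild type and 6.04 to 6.90 in Hr96[2x], with 0 of 3 tested called, and its part was not tested. AstC, which encodes the peptide allatostatin C, rose from 30.3, 20.5 and 14.1 to 70.5, 61.7 and 63.6 (log2 1.61, adjusted p = 0.00141), and CCHa1 from 0.187 to 1.79 to a range of 2.82 to 5.04 (log2 1.46, adjusted p = 0.00192; 0.0597 with the 6 libraries alone). The prohormone convertase gene amon (log2 1.40) and the convertase partner 7B2 (adjusted p = 0.000233), both needed to process peptide hormones, rose as well, and so did CG13565, the gene of the peptide orcokinin, named after its values were seen (log2 1.95, adjusted p = 0.0109). In posterior midgut 8 of the 14 rose and 0 fell, with a median of 1.28. In bulk tissue more cells of a type and more RNA per cell cannot be told apart.

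**Figure D4:**
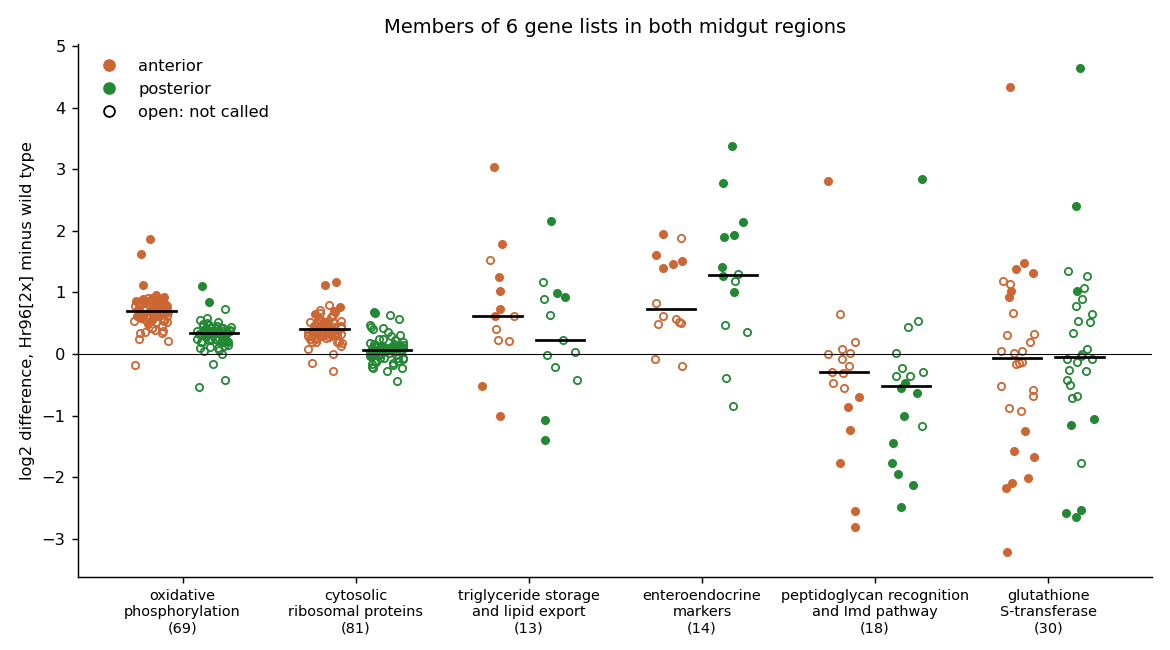
Log2 difference of Hr96[2x] minus wild type for each tested member of 6 gene lists in anterior (orange) and posterior (green) midgut, with filled points for called genes and bars at medians. Oxidative phosphorylation lies above 0 in 68 of 69 anterior members, and ribosomal proteins, whose median of 0.40 turns to -0.12 on deposited FPKM, lie nearer to 0 in posterior midgut.

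Several signalling genes outside the gut lists changed. Among 19 genes of insulin and TOR signalling 2 rose and 2 fell, beside 8.61% and 9.77% of all genes. ImpL2, a secreted binding protein that opposes insulin, read 89.7, 95.8 and 231 in wild type and 19.2, 29.2 and 11.8 in Hr96[2x] (log2 -2.68, adjusted p = 0.000224). Sesn, a stress-induced inhibitor of TOR, rose from 18.6, 7.99 and 7.39 to a range up to 55.2, with no overlap (log2 1.78, adjusted p = 0.000579; 0.0633 with the 6 libraries alone), and the transcription factor gene foxo from 14.1 to 15.8 to a range of 19.9 to 34.9 (log2 0.85, adjusted p = 0.0154; 0.0587 to 0.084 without wild-type replicate 3 or Hr96[2x] replicates 1 or 2). Ilp3, an insulin-like peptide gene, was at log2 -1.64 (adjusted p = 0.0267; 0.0593 to 0.126 without any 1 library other than wild-type replicate 1).

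Of 13 nuclear receptor and ecdysone response genes 3 rose and 2 fell, beside 8.61% and 9.77% of all genes (median log2 0.14, and -0.34 on deposited FPKM). The methionine sulfoxide reductase gene Eip71CD rose from 23.8, 39.3 and 39.9 to 128, 621 and 238 (log2 2.96, adjusted p = 0.00618). The receptors Hr78 (log2 0.51) and ERR (0.67), usp (-0.38), the fly RXR, and Eip78C (-0.72) changed less, with adjusted p from 0.0137 to 0.0406, and each lost its call without at least 2 single libraries. For Hr78 these were wild-type replicate 3 (0.0853) and Hr96[2x] replicate 2 (0.136). For ERR they were all but wild-type replicate 1 and Hr96[2x] replicate 3 (0.111 or more), for usp wild-type replicate 1 (0.0759) and Hr96[2x] replicate 3 (0.061), and for Eip78C all but wild-type replicate 2 and Hr96[2x] replicate 2 (0.054 to 0.210). In metal handling 1 of 15 genes rose and 3 fell, beside 8.61% and 9.77% of all genes. Among the falls was the metallothionein gene MtnB at 186, 178 and 154 against 18.9, 18.8 and 28.7 (log2 -2.93, adjusted p = 0.0443, and 0.0657 to 0.109 without any 1 library). In the heat shock list 2 of 13 fell, beside 9.77% of all genes. These were Hsp83 (log2 -1.35; adjusted p of 0.0597 without wild-type replicate 3 and 0.0625 without Hr96[2x] replicate 2) and Hsp70Ba (-2.74). The related genes Hsp70Bb, Hsp70Bbb and Hsp70Bc were not called, at log2 0.12, -0.21 and 0.06.

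Markers of other tissues moved in part with single libraries and in part between the groups. The fat body list without tobi summed to 1615 in wild-type replicate 1, through the yolk protein genes Yp1, Yp2 and Yp3, beside 159 as the lowest wild-type library and 135 to 193 in Hr96[2x]. The Malpighian tubule genes Uro (40.3) and salt (18.5) were high in Hr96[2x] replicate 1 and at most 3.46 in any other library, while the summed level of the 11 tubule markers was 178 to 221 in wild type and 86.0 to 174 in Hr96[2x]. Of 10 tested tubule markers 2 fell, beside 9.77% of all genes. These were Irk2 (133 to 149 against 23.4 to 42.2) and sut1 (log2 -1.46, adjusted p = 0.00469; 0.0515 with the 6 libraries alone). Irk2 made up most of the summed level in wild type. Of the 10 tested markers 6 lay above 0, with a median log2 of 0.34, so the lower sum does not describe the list as a whole. Hr96[2x] replicate 3 held the highest tobi, at 861. Visceral muscle genes were high in Hr96[2x] replicate 2, with a summed level of 819 beside 377 in the lowest Hr96[2x] library, as in Act87E at 40.3 beside 6.91 and 8.44. Of 13 tested visceral muscle genes 0 were called. Of 3 tested hemocyte markers 1 rose, beside 8.61% of all genes. It was srp (log2 0.91, adjusted p = 0.0284; 0.109 to 0.205 without wild-type replicate 3 or Hr96[2x] replicates 1 or 2), which is also in the list of regional midgut transcription factors. The hemocyte markers crq and PPO2 were at log2 -0.71 and -0.05 and not called. The summed level of the 11 hemocyte markers was 32.7 to 41.2 in wild type and 21.6 to 35.3 in Hr96[2x]. The part of these tissues in the results was not tested, except that the fits without each library are given beside the calls they changed.

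In posterior midgut, which has its own libraries, 934 of 8335 genes were called (11.2%), 344 higher (4.13%) and 590 lower (7.08%), or 615 without posterior Hr96[2x] replicate 1. Of the anterior calls 641 were called in posterior midgut in the same direction, 41.8% of the anterior and 68.6% of the posterior calls, and 6 were called in opposite directions. The libraries of the 2 regions are separate, but same-numbered libraries may come from the same flies. The difference between regions was called in 30 genes (0.36%), 22 with a more positive (0.264%) and 8 with a more negative (0.096%) anterior difference, and in 455 at an unadjusted p under 0.05. Without anterior Hr96[2x] replicate 3 it was called in 47 genes. Of the 1532 anterior calls, 22 had a called region difference.

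Among these, tobi rose in anterior but was not called in posterior midgut, where it read 0.527 to 0.813 in wild type and 1.34 to 3.86 in Hr96[2x] (difference between regions log2 6.30, SE 0.65, adjusted p = 1.39e-05). CG4835, CG15431 and CG13397 (now Naglu, an enzyme gene of heparan sulfate breakdown) rose in anterior midgut by log2 4.13, 3.24 and 1.83 and in posterior midgut were at 0.89, 0.14 and 0.01. Their differences between regions were log2 3.24, 3.10 and 1.83, with adjusted p of 3.51e-05, 0.000152 and 0.000513. The posterior rise of CG4835 was itself called (adjusted p = 0.0249; 0.0537 to 0.12 without any 1 posterior library other than Hr96[2x] replicate 1). With a pseudocount of 0.1 the region difference of CG4835 was log2 1.94 (adjusted p = 0.48). CG32379 is expressed in posterior midgut: it read 46.1 to 78.2 in posterior wild type, fell there by log2 5.23, and was below 0.3 in all 6 anterior libraries. CG1946 was the one triglyceride gene with opposite calls, log2 1.79 in anterior and -1.40 in posterior midgut (difference 3.19, adjusted p = 0.0126; 0.0526 to 0.0637 without anterior wild-type replicate 1, posterior wild-type replicate 2 or posterior Hr96[2x] replicate 3). Its posterior call (0.0405) was lost without any 1 posterior library other than wild-type replicate 1 (0.0615 to 0.181).

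**Figure D5:**
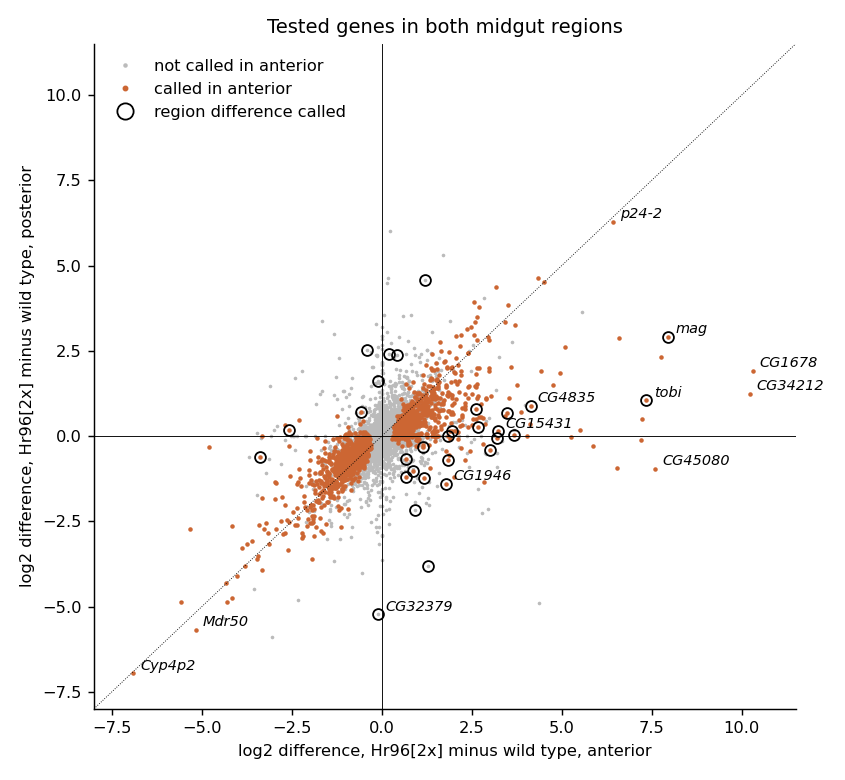
Log2 difference of Hr96[2x] minus wild type in posterior (y axis) against anterior midgut (x axis) for 8335 genes, with anterior calls in orange, circles around the 30 genes whose region difference was called and a dotted line where both are equal. Cyp4p2 and p24-2 lie on the line, while tobi and mag lie below it with anterior differences of 7.36 and 7.95.

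Set directly against Hr96[1] in the anterior midgut, Hr96[2x] differed in 799 genes (9.59%), 351 higher (4.21%) and 448 lower (5.37%), or in 505 without Hr96[1] replicate 3. Hr96[1] against the same wild-type libraries gave 1993 called genes (23.9%), or 1119 without Hr96[1] replicate 3, and shares those libraries with the comparison above. Hr96 read 33.9 to 42.1 in Hr96[1], below the 69.3 to 80.0 of Hr96[2x] (log2 0.94, adjusted p = 0.0143; 0.0713 without Hr96[1] replicate 3 and 0.0508 without Hr96[2x] replicate 3). Mag was higher in Hr96[2x] than in Hr96[1] by log2 6.38 (adjusted p = 4.56e-06). GstE1 was higher by log2 4.96 (1.29e-08), with an Hr96[1] mean of 46.8 beside 70.2 in wild type and 1520 in Hr96[2x].

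The largest differences between the strains were at single genes. The trypsin gene epsilonTry read 1.29 to 2.68 in Hr96[1] and 30360 to 43073 in Hr96[2x] (log2 13.64, adjusted p = 1.52e-13), with wild type at 4890 to 7961 between them. The cargo receptor gene p24-2 was listed at 0 in all Hr96[1] libraries and at 0 to 0.0857 in wild type, and read 93.2, 97.7 and 72.2 in Hr96[2x] (against wild type log2 6.42, adjusted p = 4.71e-21). CG11893 was at 0.0983 to 0.639 in Hr96[1], 124 to 152 in Hr96[2x] and 349 to 393 in wild type. In the other direction, Jon74E read 6110, 18440 and 20396 in Hr96[1] against 18.7 to 701 in Hr96[2x] (log2 -7.60, adjusted p = 0.000183), and CG5770 read 99.0 to 450 against 0.0731 to 0.411 (log2 -7.16, adjusted p = 0.00252). The rest of the 4 largest in each direction were short RNAs that libraries of this kind do not measure well. The white gene w read 9.95 in Hr96[1] replicate 1 and 0.0267 and 0.0268 in replicates 2 and 3, so that library stood apart from the others of its label in this gene.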

How the data were processed

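RNA was measured in 30 libraries, 3 in each of 10 groups, and groups were taken from the labels. Per the submitters' processing notes, bcl2fastq 2.17.1.14, TopHat2 2.1.1, Bowtie2 2.2.9 and Cufflinks 2.2.1 were used, with the builds dm6 and BDGP6. Per the file headers, the deposited values are FPKM per gene, with a status for each estimate. Per the labels' protocols the libraries were made from poly(A) RNA with a kit that keeps no strand. Depth is unknown, because no counts are given.

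Of 17488 genes, 103 with a failed estimate in any library were left out. FPKM were divided by a median-of-ratios factor per library (8584 genes) and turned into log2(scaled FPKM + 1). The 8335 genes with a mean of at least 1 were fitted with limma 3.58.1 (R 4.3.3), with a mean-variance trend, 1 mean per group over all 30 libraries and two-sided tests. P-values were adjusted by Benjamini-Hochberg over all tested genes, and genes under 0.05 are called. The procedure was tested on simulated data. Tables and plots used Python 3.11.15, pandas 2.3.3, numpy 2.4.6 and matplotlib 3.10.9.

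Genes are named by rule: the 10 largest called rises and falls whose libraries do not overlap and whose higher group reaches a mean of at least 5, the 5 most abundant called genes in each direction, up to 4 called members of each gene list in each direction, genes within 50 kb of Hr96, the 5 genes with the smallest p for the region difference and the 4 largest strain differences in each direction. The comparison and the gene lists were chosen with earlier results of these data known. The alternatives tried were other pseudocounts, filters, scalings, sample sets, weights, a replicate block, and leaving out each library.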

Additional observations from a re-analysis of the deposited data

Results flagged for a closer look

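In 7 of the named genes the difference between Hr96[2x] and wild type itself differed between the anterior and the posterior midgut, by limma's test of that contrast with Benjamini-Hochberg adjustment over all tested genes. The values are the anterior minus the posterior log2 difference. The value was 6.30 for tobi (adjusted p = 1.39e-05), 5.12 for CG32379 (0.000102) and 3.24 for CG4835 (3.51e-05). With a pseudocount of 0.1 the region difference of CG4835 had an adjusted p of 0.48. CG32379 was under 0.3 in all 6 anterior libraries and passed the filter through posterior midgut, so its value restates its posterior fall. The value was 3.10 for CG15431 (0.000152) and 1.83 for CG13397 (0.000513).

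The value for mag was 5.03 (adjusted p = 0.0381), and it was lost without any 1 of 10 of the 12 libraries (0.0526 to 0.141), the exceptions being anterior Hr96[2x] replicate 3 and posterior Hr96[2x] replicate 2. It was also lost with the replicate block (0.0636), with the compared libraries alone (0.0955), with the alternative added after seeing the data (0.0933) and at a pseudocount of 5 (log2 3.39, adjusted p = 0.216). The value for CG1946 was 3.19 (adjusted p = 0.0126), and it was lost without anterior wild-type replicate 1, posterior wild-type replicate 2 or posterior Hr96[2x] replicate 3 (0.0526 to 0.0637), or with the compared libraries alone (0.237).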

How the results depend on the processing

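Against 1532 called genes, FPKM as deposited gave 2349, the compared libraries alone 847 and array weights 3274. An alternative chosen after seeing the data, which kept genes that failed only outside the compared libraries and fitted those libraries alone, gave 861. In posterior midgut array weights gave 4099. For the region difference no filter gave 61, a filter at 5 gave 19, the compared libraries alone 10, array weights 567 and the added alternative 10. Between the strains deposited FPKM gave 519, the compared libraries alone 269, array weights 3320 and the added alternative 270. For Hr96[1] against wild type these last 3 settings gave 1230, 4762 and 1243. Leaving out 1 library gave 1004 to 1354 genes in anterior and 615 to 880 in posterior midgut, 24 to 47 for the region difference, 505 to 878 between the strains and 1119 to 2346 for Hr96[1]. On deposited FPKM the sign turned for Hr96 (-0.10) and CG11791 (-0.0047), and the cause of the changes in this paragraph was not tested beyond the settings themselves. With the replicate block 1571 genes were called, and the calls of RpL29, rho, ERR, MtnB and bai were lost (0.0551 to 0.0685), as was the region difference of mag (0.0636). Of the named genes in the anterior comparison, 53 lost their call with the compared libraries alone and with the added alternative, 31 on deposited FPKM besides CG11791, 22 with the 15 anterior libraries and 12 each with no filter and with quantile normalization. Same-numbered libraries deviated with correlations of 0.191, 0.0605 and 0.178, each library correlating best with its own number, but not all exceeded 0.1, so the numbers were not taken to pair samples. Unknown depth limits low genes most.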
